A study of Homo sapiens with 12 samples.

Results

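The regions described here carried acetylation of histone H3 at lysine 27 (H3K27ac) in HepG2 cells and shared no base with a called region of H3 lysine 4 monomethylation (H3K4me1) or trimethylation (H3K4me3). They were chosen by the positions of the peaks in the 3 deposited lists, on chromosomes 1 to 22 and X, and 5670 of the 66513 H3K27ac regions met the rule (8.52%, the share of all H3K27ac regions, 95% Wilson interval 8.31 to 8.74). HepG2 is a long-established human line derived from a liver tumour. Its chromatin was profiled without treatment by chromatin immunoprecipitation and sequencing (ChIP-seq), with 3 libraries each for H3K27ac, H3K4me1, H3K4me3 and a control titled as input whose antibody label named an anti-mouse immunoglobulin. Each list pooled the replicates of 1 mark, going by its name, and no library was analysed on its own. The depth, the spread between cultures and the level in the control libraries are therefore unknown, and no difference given here was tested. The intervals take each region as independent of its neighbours and cover only counting error. Overlap, distance and width all bear on the choice itself, and they are given as descriptions.

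H3K27ac is laid down by the acetyltransferases p300 and CBP and is found at active promoters and enhancers. H3K4me1 is written mainly by MLL3 and MLL4 and marks enhancers and the flanks of promoters, while H3K4me3, written by the SET1 and MLL complexes, is concentrated at promoters. An active enhancer is usually described by H3K27ac together with H3K4me1, so that acetylated regions outside both methylation lists are not covered by the usual classes. A region is called without methylation here only where no peak was called. Methylation below the authors' threshold was not measured, and H3K4me2 was not among the marks profiled.

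The other H3K27ac regions served for comparison. Of these, 39769 overlapped H3K4me1 without H3K4me3 (the H3K4me1-only class) and 21074 overlapped H3K4me3. The regions without methylation covered 2265197 bp, which was 2.45% of the acetylated bases and thus a smaller share than the 8.52% of regions.

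The rule turned on a single shared base, and the regions on either side of that limit had like values. Outside it, 279 regions without methylation lay 50 bp or less from a methylated region, with a median width of 321 bp and a median signal value of 2.10. The signal value is the authors' own number for each peak, whose reference level is not given in the sources used here. Inside it, 289 H3K27ac regions shared 1 to 50 bp with a methylated region, with a median width of 323 bp and a median signal value of 2.05. Of the regions that directly abutted an H3K4me1 region there were 6, and 10 H3K27ac regions shared exactly 1 bp. The abutting regions with the highest signal values were chr18:60451690-60452014 (2.43), chr10:22215640-22215908 (2.41) and chr3:185682935-185683237 (1.97). Among those sharing 1 bp they were chr7:100152534-100152969 (2.71), chr3:171904095-171905037 (2.63) and chr10:60965772-60966385 (2.23). All positions are given in the build hg19 (GRCh37), counted from 1.

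Most of these regions lay closer to H3K4me1 than to H3K4me3. The median distance to the nearest H3K4me1 region was 771 bp (95% interval of the median 716 to 822, interquartile range 251 to 3350, SD of the 23 chromosome medians 160). The median distance to the nearest H3K4me3 region was 18462 bp (17697 to 19392, interquartile range 7595 to 42814, SD 5045). An H3K4me1 region lay within 1000 bp of 3127 regions (55.1%, 53.9 to 56.4) and within 10000 bp of 5059 (89.2%). For H3K4me3 these counts were 189 (3.33%, 2.90 to 3.83) and 1795 (31.7%, 30.5 to 32.9). Over 10 kb to either side of the summit, the position of highest signal, H3K4me3 was missing for 68.8% of the regions without methylation. It was missing there for 61.3% of the H3K4me1-only class, so a lack of H3K4me3 nearby was common in both. The H3K4me1 list was the longer by far, with 182592 regions against 24446, and the part of this number in the shorter distance was not tested. The nearest H3K4me1 region lay on the left for 2798 regions (49.3%, 48.0 to 50.6), so neither side was favoured beyond the counting interval.

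**Figure D1:**
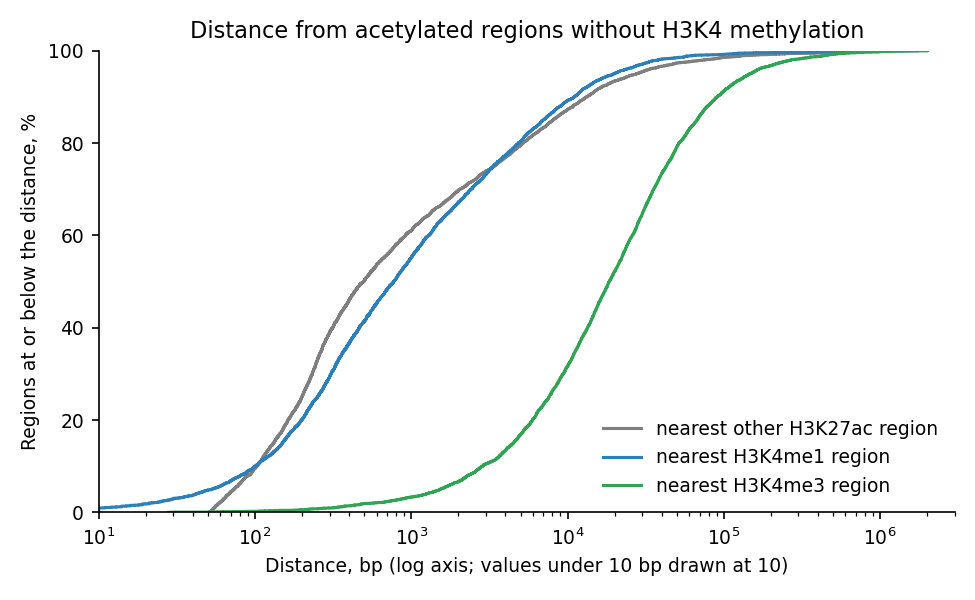
Cumulative share of the 5670 acetylated regions without H3K4 methylation (y axis, percent) at or below each distance (x axis, bp, log scale) to the nearest other H3K27ac, H3K4me1 and H3K4me3 region. The H3K4me1 curve reaches 55.1% at 1000 bp, where the H3K4me3 curve stands at 3.33%.

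By distance to either methylation the regions fell into 4 zones. Within 1 kb lay 3171 regions (55.9%, 54.6 to 57.2), from 1 to 10 kb 1909 (33.7%, 32.4 to 34.9), from 10 to 100 kb 552 (9.74%, 8.99 to 10.5), and beyond 100 kb 38 (0.670%, 0.489 to 0.919). The 2 nearer zones had the same median width of 327 bp, with 95% intervals of 321 to 333 and 320 to 333. Regions from 10 to 100 kb were wider, with a median of 377 bp (361 to 398). Their median signal value was 2.36 (2.32 to 2.41), against 2.09 (2.08 to 2.11) within 1 kb and 2.11 (2.09 to 2.13) from 1 to 10 kb. The regions from 10 to 100 kb thus had a somewhat higher median signal value, but they were also wider. Among all regions without methylation the median signal value rose from 1.95 up to 250 bp to 2.72 above 700 and up to 1000 bp. Chromosome X held 6.70% of the regions from 10 to 100 kb and 3.47% of those within 1 kb. The part of width or chromosome in this difference was not tested. A −log10 q-value of at least 5 was reached by 59.8% of the regions from 10 to 100 kb (55.6 to 63.8) and by 41.8% of those within 1 kb (40.0 to 43.5).

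Within 1 kb, methylation was more often on a single side. It lay there on 1 side of 2387 regions (42.1%, 40.8 to 43.4) and on both sides of 784 (13.8%, 13.0 to 14.8). For the regions with methylation on both sides, the space between the flanking methylated regions had a median of 1123 bp (interquartile range 808 to 1452). The region itself filled a median of 32.1% of that space. Other acetylation in the space was not counted, and a space holding several of these regions entered once for each. These enclosed regions had a median width of 320 bp and a median signal value of 2.05 (2.02 to 2.08). The 2499 regions with no methylation within 1 kb on either side had a median width of 338 bp and a median signal value of 2.15 (2.14 to 2.18).

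H3K4me3 was the nearer mark for only 135 regions (2.38%, 2.02 to 2.81). Within 1 kb of H3K4me3 and more than 1 kb from H3K4me1 lay 44 regions (0.776%, 0.579 to 1.04), with a median distance of 358 bp to H3K4me3 and 2427 bp to H3K4me1. Their median signal value was 2.40 (2.21 to 2.87). For 40 of the 44 the nearest other H3K27ac region overlapped H3K4me3 (90.9%, 78.8 to 96.4). A further 145 regions had both methylations within 1 kb and a median signal value of 2.01 (1.94 to 2.10), and for 124 of them (85.5%, 78.9 to 90.3) the nearest H3K27ac region likewise overlapped H3K4me3. Among the 2982 regions with only H3K4me1 within 1 kb, the nearest H3K27ac region overlapped H3K4me3 for 295 (9.89%). Of all 5670 regions without methylation it did so for 850 (15.0%). The sets were chosen by whether H3K4me3 lay within 1 kb, so this difference is bound up with the choice and is a description. Whether the H3K4me3 region within 1 kb was the one that the neighbour overlapped was not tested.

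The H3K4me1 regions next to acetylation without methylation were often acetylated elsewhere along their length. For 3551 of the 5670 regions without methylation (62.6%, 61.4 to 63.9), the nearest H3K4me1 region overlapped another H3K27ac region. An H3K4me1 region nearest to several of them was counted once for each. The share was 71.4% (69.8 to 72.9) where methylation lay within 1 kb and 51.5% (49.5 to 53.5) where it lay farther. In the whole H3K4me1 list, with each region counted once, 33.4% (33.2 to 33.6) overlapped an H3K27ac region. The whole list is no matched comparison, since the nearest regions were chosen for lying beside acetylation. Counted in the same repeated way, the nearest H3K4me1 regions had a median width of 634 bp and a median signal value of 3.27. These were close to the 696 bp and 3.42 of the whole H3K4me1 list.

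Within the H3K27ac list these regions were narrow and weak. The median width was 332 bp (95% interval 327 to 336, interquartile range 269 to 451, SD over chromosomes 13.1), and the widest measured 2796 bp. The narrowest were as narrow as any in the whole H3K27ac list. H3K4me1-only regions had a median width of 570 bp and regions with H3K4me3 1817 bp. At most 300 bp were 2251 regions without methylation (39.7%, 38.4 to 40.98), against 14.5% of all H3K27ac regions. At least 1000 bp were 128 (2.26%, 1.90 to 2.68), against 41.3% of all H3K27ac regions. A narrow region has less room to share a base with another, so width is bound up with the rule itself.

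The median signal value was 2.12 (2.11 to 2.14, interquartile range 1.89 to 2.48, SD over chromosomes 0.12). It was 2.62 (interquartile range 2.06 to 4.24) in the H3K4me1-only class and 13.1 (4.90 to 25.6) in regions with H3K4me3. The strongest decile held 0 of them among 6651 regions, which allows a share of up to 0.0451% (3 counts), while the weakest held 1207 (18.1%, 17.2 to 19.1). A −log10 q-value of at least 5 was reached by 2444 (43.1%, 41.8 to 44.4), against 77.5% of all H3K27ac regions and 73.0% (72.5 to 73.4) of the H3K4me1-only class. The q-value was above 0.05 for 89 (1.57%, 1.28 to 1.93), against 0.656% of all. Regions without methylation were therefore commoner among the weaker and less certain calls of the list than among the stronger.

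**Figure D2:**
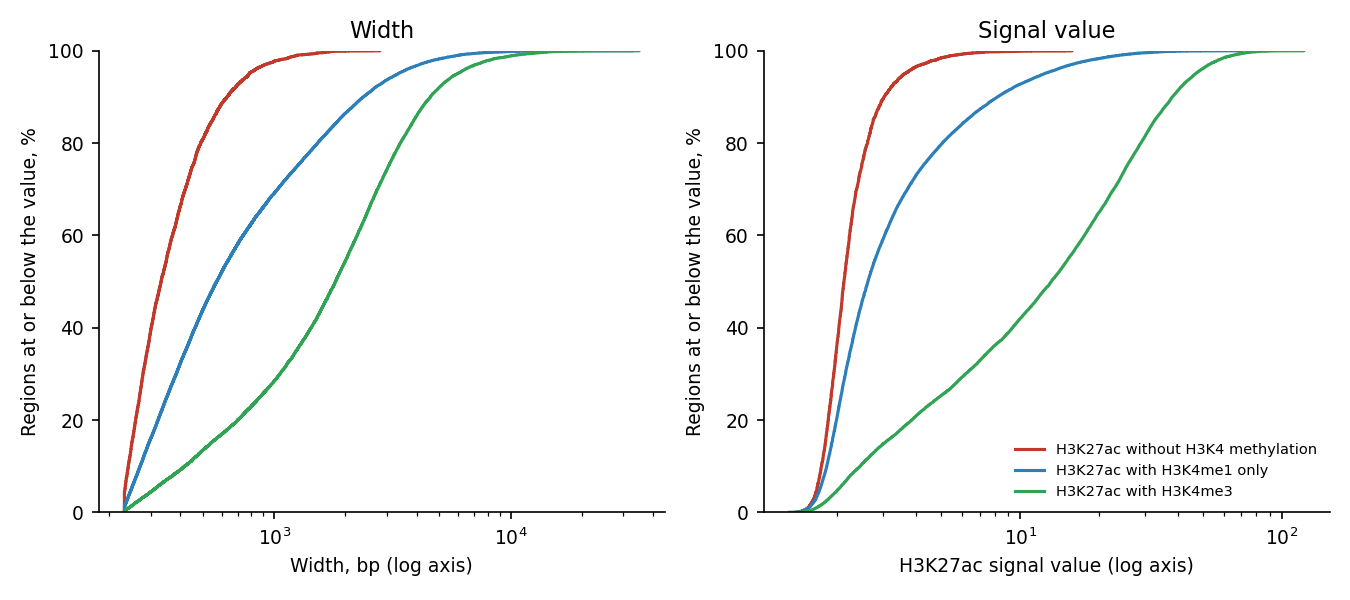
Cumulative share of regions (y axes, percent) at or below each width (left, bp, log scale) and each H3K27ac signal value (right, log scale) for the 3 classes of H3K27ac regions. The curve of regions without H3K4 methylation lies to the left of both others, with medians of 332 bp and 2.12.

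Signal values and p-values came in repeated steps. Both were equal, to all 5 decimals of the deposited values, to those of another region without methylation for 2484 of the 5670 (43.8%), which held 3962 distinct pairs in all. The commonest pair, a signal value of 2.15 with a −log10 p-value of 4.78, was shared by 26 regions. In the H3K4me1-only class 55.3% of regions shared both values with another of their class, a larger set in which ties are more likely.

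The share of regions without methylation fell with width in every step. It was 25.6% (24.2 to 27.1) among H3K27ac regions of up to 250 bp, 16.9% (16.1 to 17.7) above 300 and up to 400 bp, 8.71% (8.10 to 9.36) above 500 and up to 700 bp, and 1.37% (1.12 to 1.67) above 1000 and up to 1500 bp. Above 2000 bp it was 0.0334%, or 5 of 14982 regions. At 1 width, the signal value made little difference to the share. Among the 8974 H3K27ac regions above 300 and up to 400 bp, 15.6% (14.2 to 17.2) of the strongest quartile by signal value had no methylation, 16.9% (15.4 to 18.5) of the second, 18.0% (16.5 to 19.7) of the third and 17.0% (15.5 to 18.6) of the weakest. These 4 intervals overlapped, while the median signal value ran from 2.79 to 1.79.

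**Figure D3:**
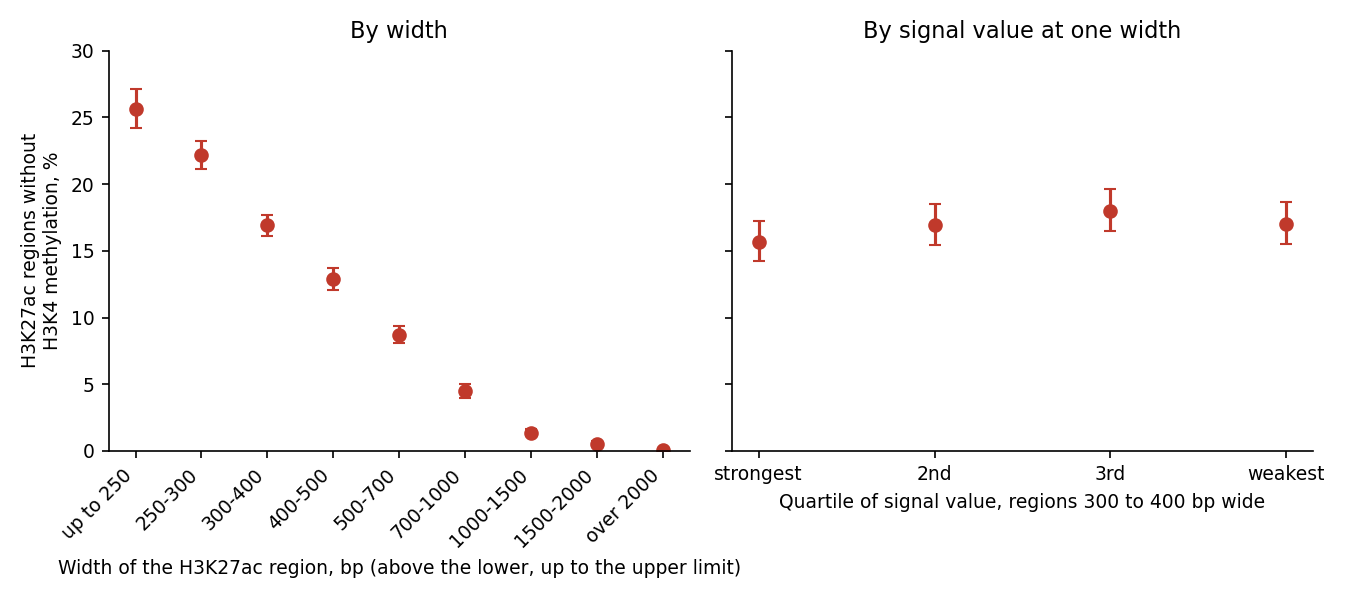
Share of H3K27ac regions without H3K4 methylation (y axis, percent) by width of the region (left) and by quartile of signal value among regions above 300 and up to 400 bp (right). Points are shares and bars 95% Wilson intervals, and the share falls from 25.6% to 0.0334% over the widths but stays between 15.6% and 18.0% over the quartiles.

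Compared at like widths, the classes differed little in signal value at the narrow end and more at the wide end. Up to 250 bp the median was 1.95 without methylation, 1.90 in the H3K4me1-only class and 1.89 with H3K4me3. In the bin from 300 to 400 bp the medians were 2.14, 2.15 and 2.31. From 700 to 1000 bp they were 2.72, 3.00 and 5.46, and from 1000 to 1500 bp 3.28, 3.79 and 8.83. Acetylation without methylation thus had the lowest median from 300 bp upwards in these bins and the highest in the narrowest.

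The 128 regions of at least 1000 bp formed the wide end. Their median signal value was 3.47 (interquartile range 2.72 to 4.84), against 5.87 for the 12284 H3K4me1-only regions and 19.5 for the 15077 regions with H3K4me3 of that width. They lay farther from methylation than the narrow ones. A wide region meets the rule only in a longer stretch free of methylation, so this difference is bound up with the choice. Their median distance to either mark was 3754 bp and 26.6% (19.7 to 34.8) were more than 10 kb away, while regions of up to 300 bp had a median of 704 bp and 7.77% (6.74 to 8.95) beyond 10 kb. The 5 widest were chr3:130681638-130684433 (2796 bp, signal value 9.88), chr12:107420080-107422664 (2585 bp, 8.24), chr16:68954765-68956843 (2079 bp, 5.10), chr3:52703874-52705928 (2055 bp, 4.51) and chr17:44149378-44151408 (2031 bp, 2.68). Their distances to H3K4me1 were 6646, 14003, 11146, 4297 and 8235 bp, so that none of the 5 bordered on called monomethylation.

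The 5 regions with the highest signal values were a mixed set. The strongest, chr9:135145571-135147190, had a signal value of 15.8, a width of 1620 bp and H3K4me1 at 595 bp. Next came chr7:74381339-74381862 (15.3), the only one of the 5 nearer to H3K4me3, which lay at 765 bp with H3K4me1 at 26593 bp. The region chr17:61926219-61926665 (14.7) was 447 bp wide, lay 41 bp from H3K4me1, and had the highest −log10 p-value of all the regions without methylation, 536. The region chr6:76382919-76383831 (13.6) lay 131 bp from H3K4me1 and 67 bp from an H3K27ac region of the H3K4me1-only class. The fifth, chrX:2005799-2006419 (10.97), was remote, with H3K4me1 at 14438 bp and H3K4me3 at 224326 bp, and its nearest H3K27ac neighbour at 938 bp also had no methylation. The strongest values therefore came both from the edges of methylated chromatin and from outside it.

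Other acetylation was close by for most of these regions. The median distance to the nearest other H3K27ac region was 497 bp (95% interval 453 to 529), against 370 bp (360 to 382) for the H3K4me1-only class and 1302 bp (1207 to 1394) for regions with H3K4me3. Another H3K27ac region lay within 1000 bp for 3463 (61.1%, 59.8 to 62.3), beside 57.9% of all H3K27ac regions and 62.9% (62.4 to 63.4) of the H3K4me1-only class. No other lay within 10 kb for 722 (12.7%, 11.9 to 13.6), beside 15.8% of all. In their spacing from other acetylation these regions thus stood near the background of the list. No 2 peaks of 1 list were closer than 51 bp.

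The nearest H3K27ac neighbour was of the H3K4me1-only class for 3262 regions (57.5%, 56.2 to 58.8), overlapped H3K4me3 for 850 (15.0%, 14.1 to 15.9) and was itself without methylation for 1558 (27.5%, 26.3 to 28.7). Regions without methylation make up 8.52% of the list, and they were the nearest neighbour for 7.51% (7.26 to 7.77) of the H3K4me1-only class. The H3K4me1-only class makes up 59.8% of the list and was the nearest neighbour for 72.8% (72.4 to 73.3) of its own members. Regions with H3K4me3 make up 31.7% and were the nearest neighbour for 19.7% (19.3 to 20.0) of the H3K4me1-only class. Neighbours inside the same methylation-free stretch share that stretch, so the regions are not independent of each other.

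Read along the chromosomes, the 5670 regions formed 4327 runs, a run being consecutive H3K27ac regions that all lacked methylation. Runs of 1 held 3355 regions (59.2%, 57.9 to 60.4) and longer runs 2315 (40.8%, 39.6 to 42.1). There were 714 runs of 2, 183 of 3, 50 of 4 and 25 of 5 or more, the last with 138 regions in all. Of the regions within 1 kb of methylation 28.6% (27.1 to 30.2) were in runs of 2 or more, of those from 1 to 10 kb 57.3% (55.0 to 59.5), of those from 10 to 100 kb 54.0% (49.8 to 58.1) and of the 38 beyond 44.7% (30.1 to 60.3). The share was thus lowest next to methylation and did not rise steadily with distance. Methylated regions without acetylation may lie between the regions of a run.

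The longest run had 8 regions in 7850 bp at chr20:10620928-10628777. Their widths were 277 to 460 bp and their signal values 1.53 to 2.79, with the highest in the last region and the lowest in the fifth. Distances to H3K4me1 rose from 2551 bp at the left end to 5989 bp in the fifth region and fell to 4142 bp at the right end, and H3K4me3 lay 21647 to 29074 bp away. The run was thus a string of weak, narrow acetylated regions in the middle of a stretch without called methylation. A run of 7 at chr10:7759063-7791252 spanned 32190 bp, with signal values of 1.75 to 3.87. Among the 8 runs of 6, the most compact spanned 3568 bp at chr1:46345679-46349246, of which 2776 bp were acetylated, with signal values of 1.75 to 2.69. The widest-spaced spanned 67476 bp at chr11:46767104-46834579, and 1 of its regions reached a signal value of 6.21.

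The 38 regions more than 100 kb from either methylation lay on 14 chromosomes, with 7 each on chromosomes 5 and X. Their signal values ran from 1.90 to 4.57 (median 2.61) and their widths from 233 to 1069 bp (median 386). A −log10 q-value of at least 5 was reached by 27 of the 38 (71.1%, 55.2 to 83.0). For 29 of them no other H3K27ac region lay within 100 kb, so that they were solitary in all 3 lists, whereas 7 had an H3K27ac neighbour within 1 kb. The most remote was chrX:121249706-121250063, 358 bp wide with a signal value of 3.00, at 968071 bp from the nearest methylation. Next were chr11:40351076-40351579 (signal value 2.39, 859655 bp), chrX:29579250-29579969 (2.61, 721524 bp), chr7:10277328-10277644 (2.90, 685292 bp) and chrX:29679987-29680277 (2.35, 621216 bp). The last of these began a cluster of 3 regions in under 2 kb, ending at position 29681926 of chromosome X. The signal value of the 3 was 2.35, 3.66 and 4.57, and no other of the 38 had a higher value than the last.

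The surroundings of the summits, the positions of highest signal within regions, were compared between classes. At the summit itself methylation is absent by the rule. At 500 bp to either side 16.9% of positions around regions without methylation lay inside an H3K4me1 region, at 1000 bp 21.7%, at 2000 bp 22.8% and at 20 kb 20.7%. Around the H3K4me1-only class the share fell from 56.4% at 1000 bp to 37.6% at 2000 bp and 24.4% at 20 kb. Between 1000 bp and 20 kb the share around regions without methylation stayed within a few percentage points. Its highest value was 22.8% at 2000 bp. The rule keeps methylation out of the region itself, and its part in the lower share nearer the summit was not tested. The H3K4me3 share was 1.31% at 1000 bp, 4.68% at 5 kb, 5.56% at 10 kb and 4.86% at 20 kb, beside 2.16%, 6.13%, 5.30% and 4.50% around the H3K4me1-only class. The H3K27ac share was 22.4% at 1000 bp and 15.7% at 20 kb, beside 32.6% and 14.2%.

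**Figure D4:**
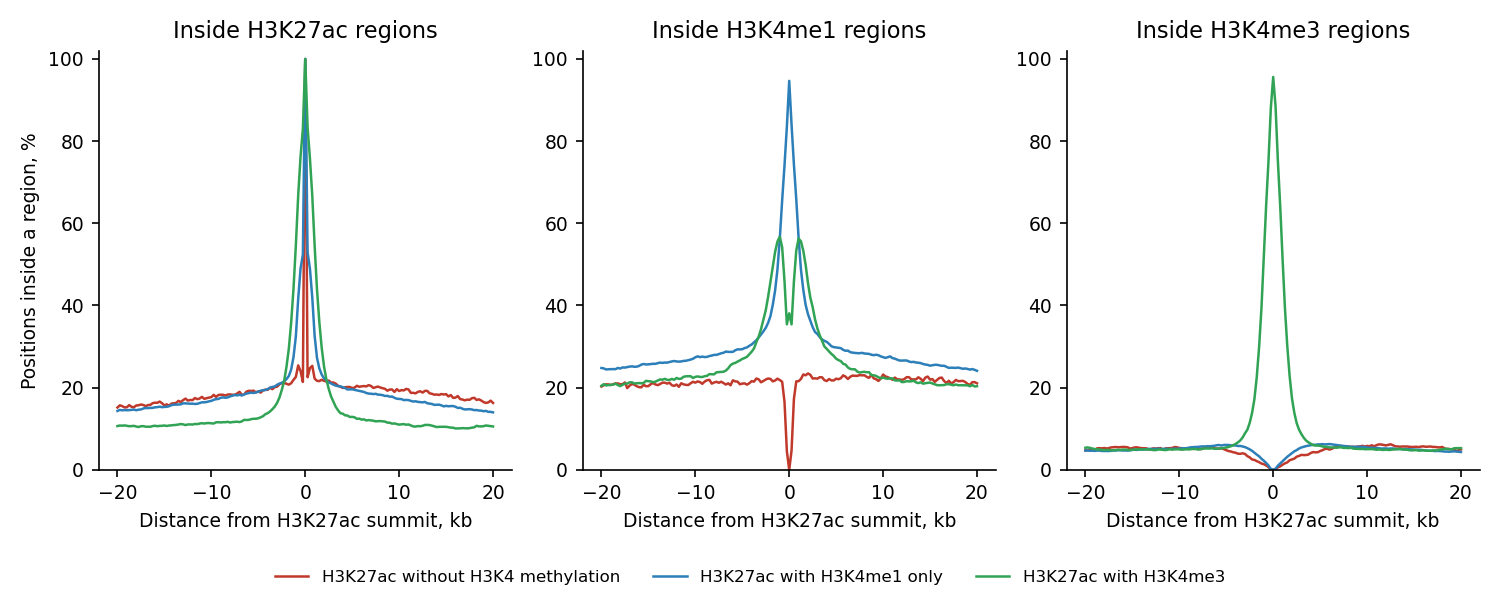
Share of positions inside an H3K27ac (left), H3K4me1 (middle) or H3K4me3 (right) region (y axes, percent) by distance from the H3K27ac summit (x axes, kb) for the 3 classes of H3K27ac regions, in steps of 250 bp. Around regions without H3K4 methylation the H3K4me1 share is 0 at the summit by the rule, 21.7% at 1000 bp and 20.7% at 20 kb.

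Over 50 kb to either side of the summit, cover by the 3 marks was measured around the regions without methylation and around the H3K4me1-only class. H3K27ac covered a median of 12.7% of that window (95% interval 12.3 to 13.2, SD over chromosomes 3.31) against 12.3% (12.2 to 12.5, SD 2.30). H3K4me1 covered 16.9% (16.5 to 17.6, SD 4.71) against 23.2% (22.98 to 23.4, SD 4.88), and H3K4me3 4.09% (SD 1.26) against 3.8% (SD 1.11). Both classes were chosen by their overlap with H3K4me1, so its lower cover is a description and no independent result. Over 10 kb to either side the H3K27ac cover was 15.7% (15.1 to 16.5, SD 3.47) around regions without methylation. It was 18.4% (18.1 to 18.6, SD 2.86) around the H3K4me1-only class. For H3K27ac cover the intervals of the 2 classes thus overlapped over the wider window and did not over the narrower one. Each window includes the region at its centre, and regions without methylation were the narrower ones. From the window of 50 kb to either side, H3K4me3 was missing for 1189 regions without methylation (21.0%). This was near the 7839 (19.7%) of the H3K4me1-only class. H3K4me1 was missing for 86 (1.52%), and by definition for 0 of the H3K4me1-only class.

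Regions without methylation were found on each of the 23 chromosomes, from 63 on chromosome 21 to 546 on chromosome 1. Per Mb there were 1.94 on average (SD 0.67), with the most on chromosome 19 (3.97) and the fewest on chromosome 13 (1.10). As a share of the H3K27ac regions of a chromosome they made up 8.50% on average (SD 1.44). The share was highest on chromosome X, at 11.7% (202 of 1723, 10.3 to 13.3), followed by chromosome 4 at 10.99% (9.79 to 12.3) and chromosome 7 at 10.1% (9.14 to 11.1). It was lowest on chromosome 14, at 6.46% (5.51 to 7.57), chromosome 20, at 6.57% (5.55 to 7.77), and chromosome 16, at 6.68% (5.85 to 7.62). Chromosome X also had the lowest cover by H3K4me1, 2.19% of its length, with 3.28% on chromosome 4, 10.3% on chromosome 16 and 11.1% on chromosome 20. Chromosome 7 had 5.96% and chromosome 14 had 6.41%, both near the median of 6.29% over chromosomes. The part of H3K4me1 cover in these shares was not tested.

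Distances and signal values also varied by chromosome. The median distance to H3K4me1 ran from 490 bp (95% interval 424 to 632) on chromosome 19 to 1148 bp (799 to 1540) on chromosome 7. The median distance to H3K4me3 ran from 7550 bp (6326 to 9286) on chromosome 19 to 28367 bp (24547 to 32692) on chromosome 2. More than 10 kb from methylation lay 44 of the 202 regions on chromosome X (21.8%), the highest share. Next were 12 of 63 on chromosome 21 (19.0%) and 20 of 125 on chromosome 18 (16%). The lowest share was on chromosome 19, with 8 of 235 (3.40%). Of all 5670 regions, 9.74% lay from 10 to 100 kb away and 0.670% beyond 100 kb. The median signal value was highest on chromosome X, at 2.48 (2.40 to 2.55), and lowest on chromosome 20, at 1.86 (1.79 to 1.94). The median −log10 p-value of these chromosomes ran the same way, 6.82 (6.39 to 7.71) and 6.04 (5.4 to 7.11), but with overlapping intervals. Neither was an extreme by that measure, whose medians were highest on chromosome 15 (7.08) and lowest on chromosome 22 (5.41). H3K27ac regions with methylation had median signal values of 4.83 on chromosome X and 3.17 on chromosome 20. The signal value therefore differed between these chromosomes in the same direction in both sets.

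**Figure D5:**
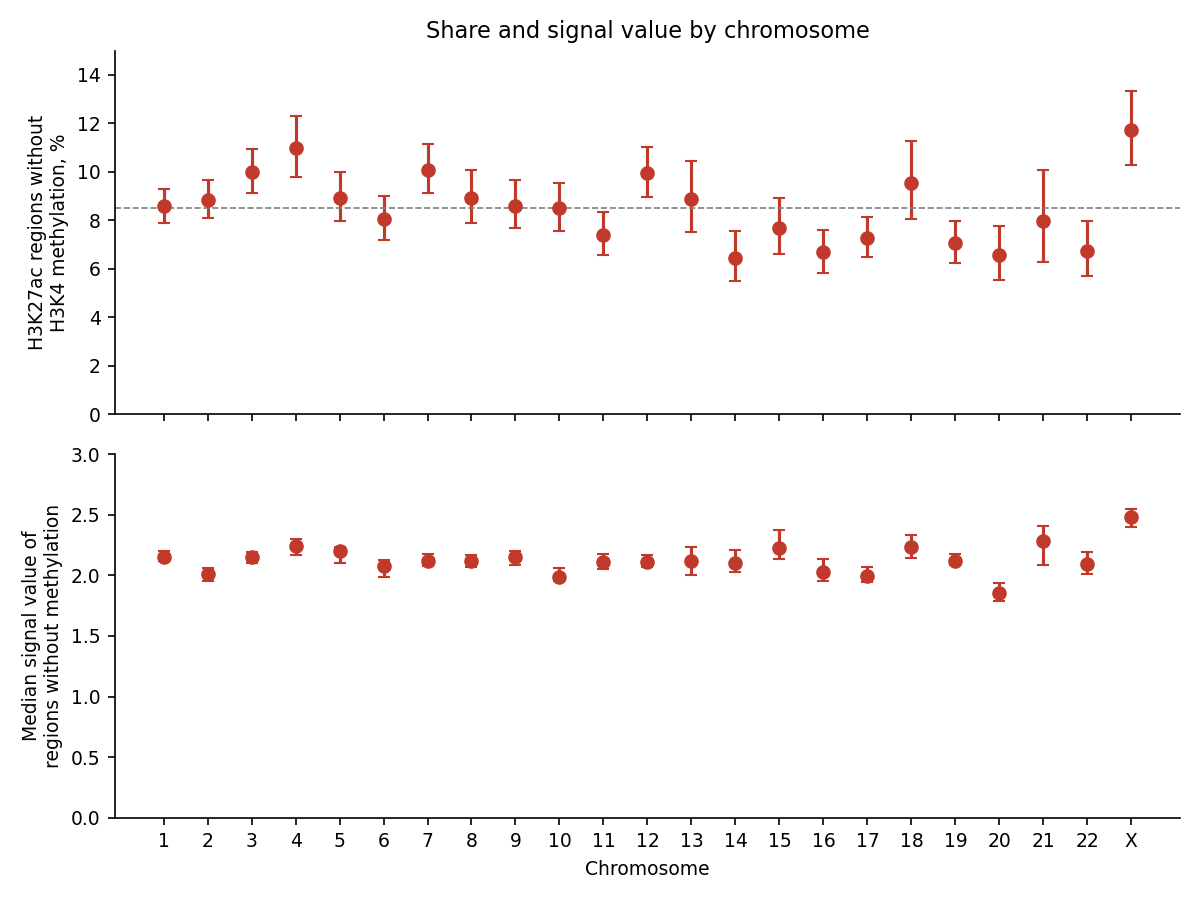
Share of H3K27ac regions without H3K4 methylation (upper panel, percent, dashed line at 8.52%) and their median signal value (lower panel) for each chromosome, with bars for 95% intervals. Chromosome X is highest in both panels, at 11.7% and 2.48, and chromosome 20 has the lowest median signal value, 1.86.

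Within chromosomes the count of regions varied from place to place. Of 3053 windows of 1 Mb, 2474 held an H3K27ac region and 1601 at least 1 region without methylation, with a median of 2 in those. Windows with 10 or more numbered 91 and held 1217 regions, or 21.5% of all 5670. The same windows held 7358 H3K27ac regions, or 11.1% of the whole list, with a median of 80 each beside 19 over all windows with any, so that the list as a whole was dense there. The fullest window was 138 to 139 Mb on chromosome 7, where 35 of 103 H3K27ac regions had no methylation (34.0%, 25.6 to 43.6), 27 of the 35 in runs of 2 or more. Next were 47 to 48 Mb on chromosome 19, with 29 of 134 (21.6%, 15.5 to 29.4), 8 to 9 Mb on chromosome 1, with 25 of 155 (16.1%, 11.2 to 22.7), and 171 to 172 Mb on chromosome 3, with 23 of 138 (16.7%, 11.4 to 23.8). The windows 92 to 93 Mb on chromosome 7 and 39 to 40 Mb on chromosome 4 followed with 22 regions each, of 76 and 80. The windows were chosen for these counts, so the shares are descriptions. Their median signal values, 1.99 to 2.27, were close to that of all regions without methylation.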

How the data were processed

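Per the labels, 12 libraries of HepG2 cells fell into 4 groups of 3. The deposited files were 3 peak lists, 1 per mark, pooled over replicates going by their names. The submitters' processing notes name MACS2 and hg19 without version, role or threshold, and the aligner and the use of the control libraries are not given in the sources used here. The authors' signal value of each peak, the deposited −log10 p-value and q-value, and the summit were read by column. The authors' deposited score was not used. Peaks ended past 0 of 24 chromosome ends in hg19 and past 14 in hg38 (GenomeInfoDb 1.38.1). A genome sequence or annotation of hg19 was not used here, so the planned gene names, marker check and sequence features were not run.

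Distances are bases between regions, and overlap needs 1 shared bp. No peaks of a list overlapped each other. Medians have binomial order-statistic and shares Wilson 95% intervals. Pooled lists allowed no test. The named regions were the 5 strongest, widest and most remote, the 3 on either side of the limit, the 5 fullest windows of 1 Mb (6 with a tie) and the longest run. Other runs, named after their values were seen, are given by size. The rule, the lists and the alternatives were chosen with earlier results of these data known. Functions were tested on simulated regions. Python 3.11.15, numpy 2.4.6, scipy 1.17.1, pandas 2.3.3 and matplotlib 3.10.9 were used.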

Additional observations from a re-analysis of the deposited data

Results flagged for a closer look

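Chromosome Y, outside the set described above, carried 7 H3K27ac regions without H3K4 methylation among its 73 H3K27ac regions (9.59%, 95% Wilson interval 4.72 to 18.5). They are listed because that chromosome lies outside the main set. The interval includes the 8.52% of the other chromosomes, so the share does not stand apart. Their median width was 500 bp, their median signal value 3.33 and the highest 8.68, and the nearest H3K4me1 region was at a median of 224059 bp.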

How the results depend on the processing

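Over 6 results, 42 alternative values were computed, of which 17 stayed within the 95% interval of the value reported, or within 1.5 times the count, and 25 moved. The alternatives were planned, except the joining of methylated peaks within 1000 bp, which was added after seeing the data. With only H3K27ac peaks of −log10 q-value of at least 5, there were 2444 regions without methylation (4.74%), with medians of 415 bp in width, 842 bp to H3K4me1, 21725 bp to H3K4me3 and 2.55 in signal value. With that limit in all 3 lists the share was 7.64% and the medians 446 bp, 1924 bp, 22307 bp and 2.60, since weaker methylated regions then no longer counted. Allowing less than 50% of a region to be covered gave 11.9%, 362 bp in width, 310 bp to H3K4me1 and a signal value of 2.17. Requiring 1000 bp free of methylation gave 2499 regions (3.76%), 338 bp, 4132 bp, 23258 bp and 2.15. Keeping only the 200 bp to either side of the summit free of methylation gave 349 bp in width and a signal value of 2.15. Joining methylated peaks gave 8.06% and 882 bp to H3K4me1. Leaving out chromosome X moved none of the 6. The distance to H3K4me1 thus depended most on the definition, from 310 to 4132 bp, and by construction where distances were part of the rule. No paired analysis was possible because the lists pool the replicates, and no replicate could be left out. The depth behind the lists is unknown, so weak methylation that missed the authors' threshold cannot be told from its absence.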
